A study of Arabidopsis thaliana with 4 samples.

Results

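The auxin influx carrier gene AUX1 and the efflux carrier genes PIN4, ABCB1 and ABCB19 were examined in whole Arabidopsis seedlings of the Atdi19-3 mutant and of the wild type on Affymetrix ATH1 arrays. A probe set, the group of oligonucleotides that reads 1 transcript on these arrays, was taken where a single-gene annotation assigned it to exactly 1 of these loci. This gave 4 probe sets, 1 per gene, of 22746 that were tested. Atdi19-3 is a homozygous T-DNA insertion line in the drought-induced zinc finger gene AtDi19-3, represented here by 1 mutant line, and both genotypes are of the Col-0 ecotype and received no treatment. Seedlings were 10 days old and had been grown at 22 °C on half-strength MS medium, with 16 h of light and 8 h of dark, and 2 arrays, called biological replicates in the sample labels, were hybridized per genotype. The transcript of AtDi19-3 could not be examined as a check of the labels, because none of the named probe sets belongs to it. Of 4 shoot markers fixed for a check of the tissue, 3 had a named probe set, and all 3, LHCB4.1, LHCB4.2 and RCA, read above the array floor in both genotypes. The root, seed and flower markers had no named probe set here, so the root share of the seedlings could not be checked.

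Auxin is moved from cell to cell in a directed manner. Part of the indole-3-acetic acid outside a cell enters by diffusion, and part is carried in with protons by AUX1, a plasma membrane permease best known for its role in root gravitropism and in the formation of lateral roots and root hairs. Inside the cell auxin is trapped as an anion and leaves through carriers. PIN proteins sit on particular faces of the cell and thereby give the flow its direction, and PIN4 is best known from the root tip, where it helps to maintain the local maximum of auxin. ABCB1 and ABCB19 are ATP-driven transporters that carry auxin over long distances down the stem and hypocotyl, and their function depends on the immunophilin TWD1. The study asked how the loss of AtDi19-3 affects auxin responses, and these genes address the transport part of that question.

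All 4 carriers had higher mean values in Atdi19-3, by 0.81 to 1.21 on the log2 scale, and none of them passed the test over all probe sets. The values are log2 expression values whose lowest value on the arrays, 2.49, acts as a floor. Levels of different probe sets cannot be set against each other, since each set of probes has its own affinity. The 4 probe sets are named only through a supplementary gene table of the study, from which names alone were taken. That table is headed as differentially expressed genes, but it rests on averages that differ from the deposited values, and an entry in it is no call on the values used here. All 986 probe sets named only through the rows of it held here had a log2 fold change above 0 on these arrays, and the direction of the carriers is therefore no independent evidence.

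The influx carrier gene AUX1 (AT2G38120, probe set 267092_at) read 4.04 and 4.52 on the Atdi19-3 arrays, against 2.51 and 3.62 on the wild-type arrays. The genotypes did not overlap, but the wild-type arrays lay further apart (1.12) than the nearest arrays of the 2 genotypes (0.42). One of the wild-type arrays was practically at the floor and the other was more than 1 unit above it. The gap between the wild-type arrays was wider than that of 98.7% of all tested probe sets. The mean was 4.28 ± 0.34 in Atdi19-3 and 3.07 ± 0.79 in the wild type (SD, n = 2 arrays each), a 2.32-fold difference. Its log2 fold change of 1.21 had a standard error of 0.55 and a 95% interval of -0.75 to 3.18 (limma adjusted p = 0.50). AUX1 had the widest interval of the 4 carriers, the only one of the 4 that included 0. Set against the first wild-type array alone the log2 fold change was 1.77, and against the second alone 0.66. The place of AUX1 among the carriers turned on the array at the floor, since its mean difference was the largest of the 4 with that array and the smallest without it, where PIN4 had 1.02, ABCB1 0.97 and ABCB19 1.32.

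The efflux carrier gene PIN4 (AT2G01420, probe set 266300_at) read 3.73 and 3.74 in Atdi19-3, against 3.12 and 2.72 in the wild type. The Atdi19-3 arrays were practically identical, with a gap of 0.0012 between them, whereas the wild-type arrays differed by 0.41. Both mutant arrays lay above both wild-type arrays by 0.61 or more. The mean was 3.73 ± 0.00085 in Atdi19-3 and 2.92 ± 0.29 in the wild type (SD, n = 2), a 1.76-fold difference. The log2 fold change was 0.81 (standard error 0.18, 95% interval 0.16 to 1.47, limma adjusted p = 0.20).

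ABCB1 (AT2G36910, probe set 263865_at) read 4.26 and 3.91 in Atdi19-3, against 3.36 and 3.11 in the wild type. It was the only carrier with both wild-type arrays above 3, and the gaps within a genotype, 0.35 in Atdi19-3 and 0.25 in the wild type, were smaller than the nearest gap between genotypes, 0.55. The mean was 4.08 ± 0.25 in Atdi19-3 and 3.24 ± 0.17 in the wild type (SD, n = 2), a 1.80-fold difference or 0.85 on the log2 scale (standard error 0.19, 95% interval 0.15 to 1.54, limma adjusted p = 0.21).

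ABCB19 (AT3G28860, probe set 257137_at), the partner of ABCB1 in stem and hypocotyl transport, read 4.06 and 4.38 in Atdi19-3, against 3.34 and 2.90 in the wild type. The mutant arrays differed by 0.32 and the wild-type arrays by 0.44, while the nearest arrays of the 2 genotypes were 0.72 apart, the widest such gap among the 4 carriers. The mean was 4.22 ± 0.23 in Atdi19-3 and 3.12 ± 0.31 in the wild type (SD, n = 2), a 2.14-fold difference. The log2 fold change was 1.1 (standard error 0.24, 95% interval 0.23 to 1.97, limma adjusted p = 0.20).

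**Figure D1:**
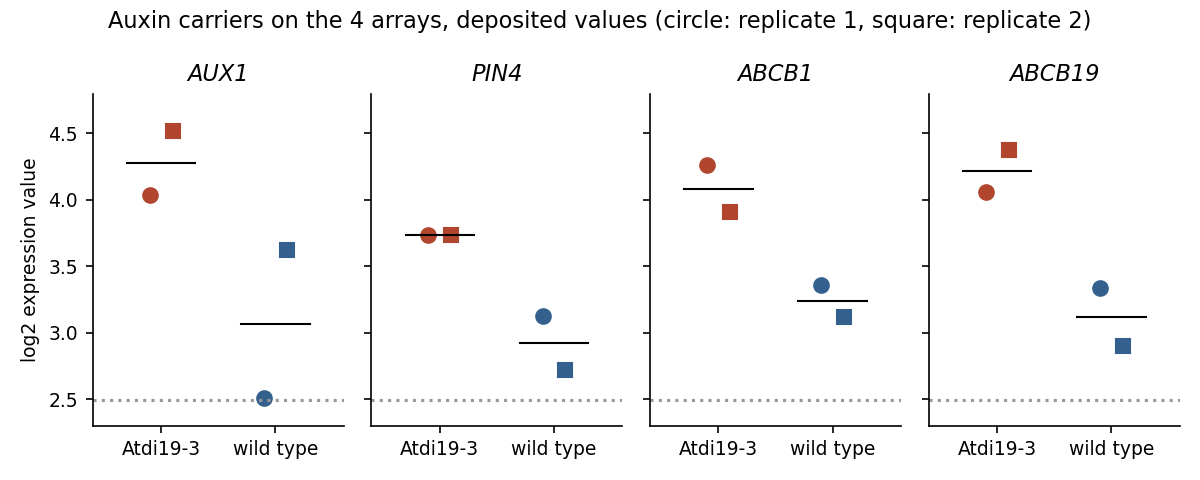
Deposited log2 expression values (y axis) of AUX1, PIN4, ABCB1 and ABCB19 on the Atdi19-3 arrays (red) and the wild-type arrays (blue), with circles for replicate 1, squares for replicate 2, black lines for the mean of 2 arrays and a dotted line at the array floor of 2.49. Both mutant points lie above both wild-type points in each panel, and the AUX1 point of the first wild-type array, at 2.51, touches the floor.

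For PIN4 and ABCB19 the second wild-type array, and for AUX1 the first, read under 3, a limit set with the values in view. Between 66.9% and 73.0% of all probe sets lie under 3 on an array. Differences are compressed near the floor, so the fold differences of AUX1, PIN4 and ABCB19 may be too small. They are no lower bound, however. On the log2 scale they were smaller, 0.74, 0.51 and 0.60 in that order, when the 4 arrays were given the same distribution. The replicate arrays did not deviate alike for the 4 genes. Of the wild-type arrays, the first was the lower one for AUX1 and the higher one for PIN4, ABCB1 and ABCB19. Of the Atdi19-3 arrays, the second was the higher one for AUX1 and ABCB19, the first was the higher one for ABCB1, and for PIN4 they did not differ. With the mean of each gene removed, the profiles of PIN4 and ABCB1 over the 4 arrays differed by a root mean square of 0.14, and the profile of AUX1 stood 0.56 to 0.60 from those of the other 3.

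At a Benjamini-Hochberg adjusted p under 0.05 limma called 0 of the 4 carriers, against 3.16% of all tested probe sets called higher in Atdi19-3 (718 higher, with 137 called lower). Unadjusted limma p-values were under 0.05 for PIN4, ABCB1 and ABCB19, 3 of 4 carriers, and for 14.6% of all probe sets in the direction of Atdi19-3. The study's thresholds, a log2 fold change over 1 with an unadjusted p of 0.05 or less, were applied to the deposited values and the limma p. By them 1 of 4 passed, ABCB19, and 6.34% of all probe sets passed in that direction. All 4 are entries in the study's own table, which rests on other averages. The 2 genotypes did not overlap, with Atdi19-3 the higher one, for 4 of 4 carriers and for 28.5% of all probe sets, a count that the naming through the study's table had favoured. The median log2 fold change was 0.97 over the 4 carriers, 0 over all tested probe sets and 1.36 over the 986 probe sets named in the same way. Most of all tested probe sets lie near the floor. Over the 7280 probe sets with a value over 3 on at least 2 arrays, the median was 0.44. The log2 fold changes exceeded those of 90.8% (PIN4), 91.3% (ABCB1), 93.8% (ABCB19) and 94.7% (AUX1) of all probe sets. The naming through the study's table favoured these ranks too, and likewise the counts by unadjusted p and by the study's thresholds. The ranks are also taken over all probe sets, most of which lie near the floor, where differences are compressed. The smallest p of an exact permutation test with 2 arrays per genotype is 0.33, and no such test was run.

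**Figure D2:**
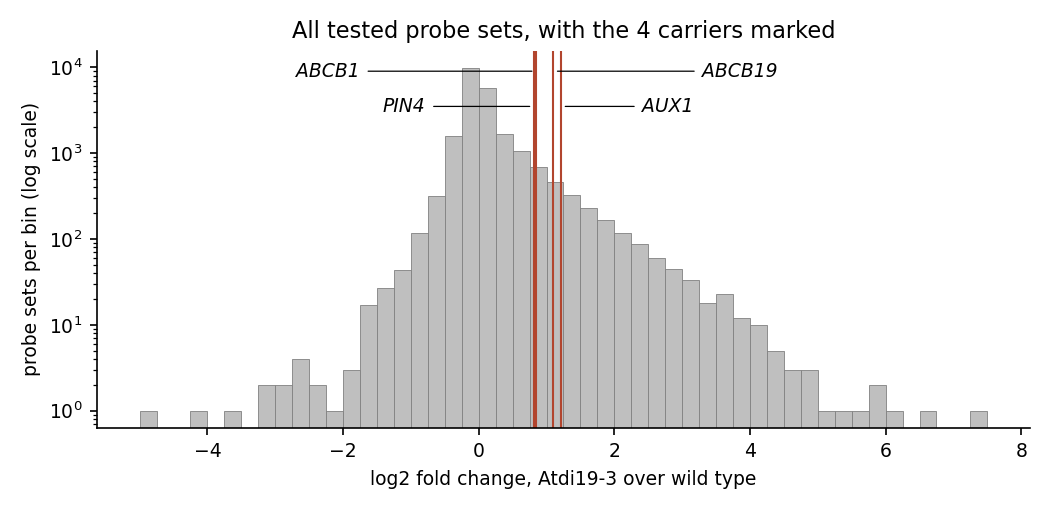
Number of probe sets (y axis, log scale) in bins of the log2 fold change of Atdi19-3 over the wild type (x axis) for all 22746 tested probe sets (grey bars), with red lines at the values of the 4 carriers. The carriers lie between 0.81 and 1.21, on the right shoulder of a distribution whose right tail is the heavier one.

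The arrays of the 2 genotypes also differed as a whole, in the same direction as the carriers. Values over 4 made up 14.1% and 13.5% of the probe sets on the Atdi19-3 arrays and 7.10% and 8.34% on the wild-type arrays. The median of 18 spike-in probe sets, which read bacterial and phage transcripts added in fixed amounts, was 5.92 and 6.20 on the Atdi19-3 arrays and 9.69 and 9.41 on the wild-type arrays. The median difference between the 3′ and 5′ probe sets of 6 control pairs was 1.89 and 1.66 in Atdi19-3 and 4.18 and 4.37 in the wild type. The Athal-Actin pair did not follow this median, with 4.71 and 4.62 in Atdi19-3 and 4.56 and 4.56 in the wild type. All other pairs had smaller differences on both Atdi19-3 arrays. Of the shoot markers, LHCB4.1 (AT5G01530), a light-harvesting protein of photosystem II, read 9.56 and 9.78 in Atdi19-3 against 6.08 and 6.09 in the wild type, and LHCB4.2 (7.83 and 7.81 against 3.27 and 3.35 in the wild type) and RCA, the Rubisco activase (8.38 and 8.56 against 4.33 and 5.65 in the wild type), were also higher on both mutant arrays. The part of the tissue makeup in the carrier values was not tested, and in such bulk samples fewer cells of a type and less RNA per cell cannot be told apart. In the carrier values, these array-wide differences and the genotype cannot be told apart, because each of them splits the 4 arrays as the genotype does.

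When the deposited values were quantile normalized, which gives the 4 arrays the same distribution, the carriers kept a mean above that of the wild type but no longer separated as a group. AUX1 read 3.72 and 4.17 in Atdi19-3 and 2.50 and 3.90 in the wild type, so that the second wild-type array lay above the first mutant array. ABCB1 read 3.91 and 3.66 in Atdi19-3 and 3.67 and 3.24 in the wild type, and these ranges overlapped as well. PIN4, with 3.48 and 3.53 in Atdi19-3 against 3.30 and 2.70 in the wild type, did not overlap. ABCB19, with 3.74 and 4.04 in Atdi19-3 against 3.63 and 2.93 in the wild type, did not overlap either. The genotypes were thus separated for 2 of 4 carriers, while after the same step Atdi19-3 was the higher genotype without overlap for 37.2% of all probe sets. The log2 fold changes were 0.74 for AUX1, 0.51 for PIN4, 0.33 for ABCB1 and 0.60 for ABCB19, and limma adjusted p-values were 0.62, 0.44, 0.55 and 0.46 in that order. The calls over all probe sets changed to 270 higher and 158 lower.

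**Figure D3:**
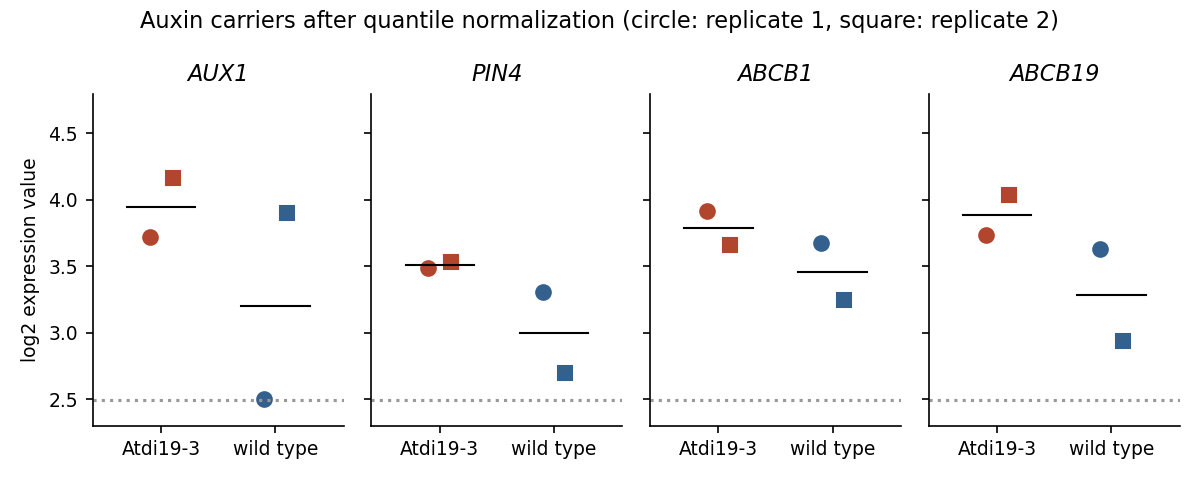
Log2 expression values (y axis) of the 4 carriers after quantile normalization, with the same symbols as for the deposited values: red for Atdi19-3, blue for the wild type, circles for replicate 1, squares for replicate 2, black lines for means and a dotted line at 2.49. The genotypes overlap for AUX1 and ABCB1 and are apart for PIN4 and ABCB19, with 3.74 against 3.63 for the nearest ABCB19 arrays.

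The filter on dim probe sets decided the call of 3 carriers. When only the 7280 probe sets with a value over 3 on at least 2 arrays were tested, limma called PIN4 (adjusted p = 0.035), ABCB1 (adjusted p = 0.035) and ABCB19 (adjusted p = 0.029), and not AUX1 (adjusted p = 0.11), with the log2 fold changes left as they were. The same filter called 34.7% of the probe sets it kept higher in Atdi19-3. PIN4 and AUX1 reached it with both mutant arrays and 1 wild-type array, as did ABCB19, and probe sets that are bright in only 1 genotype pass such a filter through that genotype alone. PIN4 was also called with all values under 3 set to 3 (0.67, limma adjusted p = 0.0497) and without either 1 of the wild-type arrays (1.02 without the first and 0.61 without the second), where its error rests on the 2 nearly identical Atdi19-3 values.

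**Figure D4:**
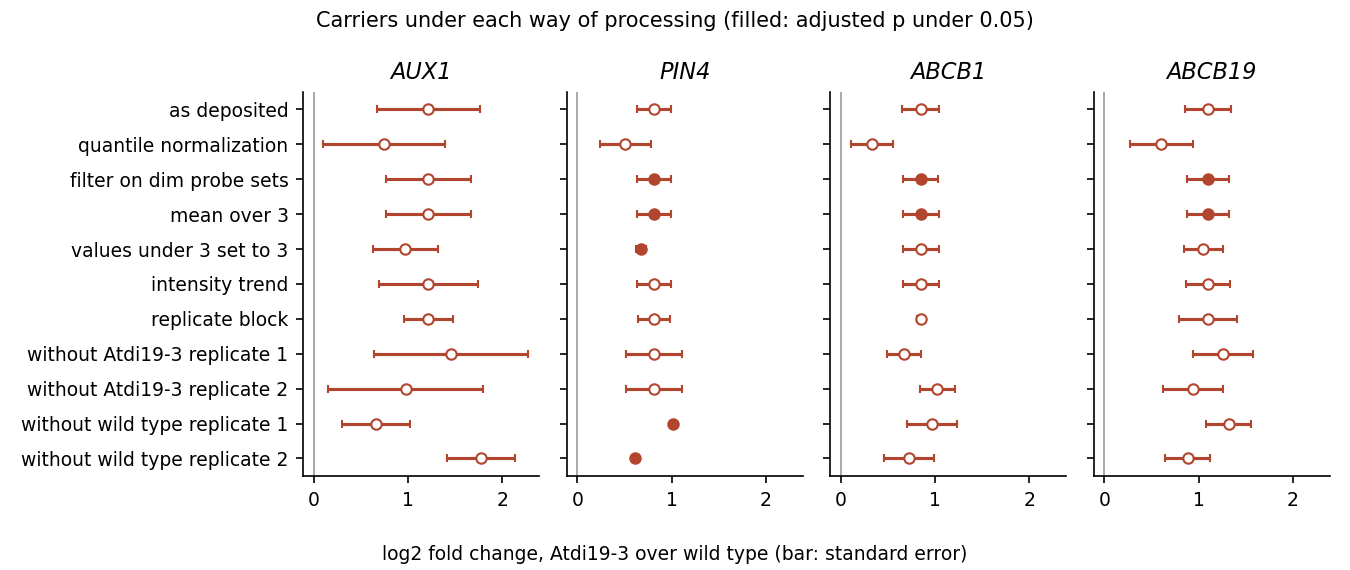
Log2 fold change of Atdi19-3 over the wild type (x axis) with its standard error (bars) for each carrier under 11 ways of processing (rows), filled where the limma adjusted p was under 0.05. Every point lies right of 0, AUX1 is open throughout with values between 0.66 and 1.77, and quantile normalization gives the lowest value of ABCB1 (0.33), PIN4 (0.51) and ABCB19 (0.60). Centring on the spike-ins, which adds 3.49 to every probe set, is not drawn.

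The other members of the main carrier families could not be described. Of the 4 AUX1/LAX influx carriers, 8 PIN proteins, 6 ABCB transporters and 7 PIN-likes carriers in the gene list, only the 4 genes above have a named probe set. Of 16 genes that act on or beside the carriers, 5 had one, and of 3 proton pumps 1. PP2AA3 (AT1G13320), an A subunit of protein phosphatase 2A, which removes the phosphate that PINOID-type kinases place on PIN proteins, had higher values on the Atdi19-3 arrays. It read 4.31 and 4.25, against 3.14 and 3.12 in the wild type, a difference of 1.15 on the log2 scale (standard error 0.03, limma adjusted p = 0.022), and it remained called after quantile normalization (0.66, adjusted p = 0.049). Without any single array it was no longer called, with log2 fold changes of 1.12 to 1.18, in fits that leave 1 array in a genotype. RCN1 (AT1G25490), a second A subunit of the same phosphatase, read 5.02 and 5.03 against 3.56 and 3.98 in the wild type and did not pass (1.26, limma adjusted p = 0.12). Its log2 fold change was 0.45 after quantile normalization (limma adjusted p = 0.26), and it was called with the filter on dim probe sets (adjusted p = 0.015). Without the first wild-type array the log2 fold change of RCN1 was 1.05, and without the second 1.47. In these fits its error rests on the 2 nearly identical Atdi19-3 values.

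AHA1 (AT2G18960), a plasma membrane proton pump that maintains the gradient used by AUX1, had the largest difference of this group. It read 6.20 and 6.31 in Atdi19-3 against 3.01 and 3.35 in the wild type, a difference of 3.08 on the log2 scale (standard error 0.16, limma adjusted p = 0.038). After quantile normalization its log2 fold change was 2.46 (limma adjusted p = 0.072). Without the first Atdi19-3 array it was 3.13 and without the second 3.02. AHA1 was no longer called in these fits, and neither was any other probe set. WAT1 (AT1G75500), a vacuolar auxin transporter, read 4.84 and 4.51 against 3.03 and 2.60 in the wild type (1.86, limma adjusted p = 0.10), and was called with the filter on dim probe sets (adjusted p = 0.010). BIG (AT3G02260), a very large protein needed for polar auxin transport, read 3.92 and 3.39 against 3.13 and 2.87 in the wild type (0.65, limma adjusted p = 0.44). The log2 fold change of BIG was 0.35 after quantile normalization and 0.39 without the first Atdi19-3 array. WAG2 (AT3G14370), a kinase of the PINOID group and the only one of these 6 genes named by the platform annotation, held the same value of 2.51 on all 4 arrays, so that no difference was detectable for it. The other 5 are named only through the study's table, and their direction is no independent evidence. In their values too, the array-wide differences and the genotype cannot be told apart. Of the 6, 2 were called higher and 0 lower, against 3.16% of all probe sets called higher. The naming through the study's table had favoured this count for those 5.

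**Figure D5:**
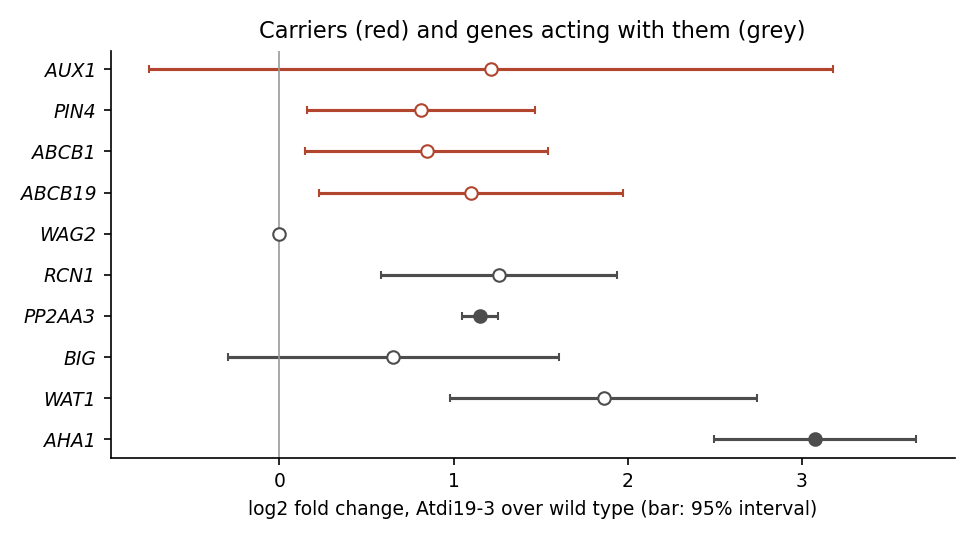
Log2 fold change of Atdi19-3 over the wild type with its 95% interval (x axis) for the 4 carriers (red) and for 6 genes that act on or beside them (grey), filled where the limma adjusted p was under 0.05. The interval of AUX1 runs from -0.75 to 3.18, AHA1 lies furthest to the right at 3.08, and WAG2 lies at 0.

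The genes whose 4 array values ran most like those of a carrier were found by the root mean square difference of the values after each probe set's mean was removed, over 14421 named single-gene probe sets. This likeness over 4 arrays is a description and carries no test. Closest to AUX1 were GSTL3 (AT5G02790), a glutathione transferase of the lambda class (0.05), SKD1 (AT2G27600), an ATPase of endosomal sorting (0.05), and AT1G19380 (0.06). All 3 shared with AUX1 a low first wild-type array, as in GSTL3, with 5.27 and 5.63 in Atdi19-3 against 3.71 and 4.76 in the wild type. Only 4 probe sets lay within 0.1 of AUX1, against 58 for PIN4, 81 for ABCB1 and 22 for ABCB19.

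Closest to PIN4 were ARF1A1C (AT2G47170), a small GTPase of vesicle trafficking (0.03), AT2G36885 (0.03) and AT3G28480 (0.03). ARF1A1C read 7.10 and 7.07 in Atdi19-3 against 6.42 and 6.07 in the wild type, far above the floor, with a log2 fold change of 0.84 (limma adjusted p = 0.16). Closest to ABCB1 were AT3G06610 (0.02), RH39 (AT4G09730), an RNA helicase of the chloroplast (0.03), and AT1G34750 (0.04). Closest to ABCB19 were TPL (AT1G15750), the corepressor TOPLESS that works with Aux/IAA proteins (0.02), PDC2 (AT5G54960), a pyruvate decarboxylase (0.02), and RAD23D (AT5G38470), a carrier of ubiquitinated proteins (0.03). TPL read 4.06 and 4.41 in Atdi19-3 against 3.32 and 2.87 in the wild type. None of these 12 probe sets was called by limma, with adjusted p-values of 0.15 to 0.52, and 4 of them are named only through the study's table.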

How the data were processed

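Total RNA of whole seedlings (500 ng) was labelled with biotin from the 3′ end and hybridized on ATH1 arrays. The authors deposited 1 log2 value per probe set and array, made with GCRMA, which corrects the background and summarizes the probes, under R 3.4.0 (submitters' processing notes). The sources used here do not state the normalization between arrays, and scans were not analysed here. The deposited values did not have the same distribution on the 4 arrays. Values over 4 made up 14.1% and 13.5% in Atdi19-3 against 7.10% and 8.34% in the wild type. After 64 control probe sets were set aside, all 22746 others were fitted on the deposited log2 values with limma 3.58.1 in R 4.3.3 (lmFit and eBayes, Atdi19-3 over wild type, no covariate, no filter), with Benjamini-Hochberg adjustment over all of them and a threshold of 0.05. The prior was worth 0.48 degrees of freedom. Names came from the platform annotation (13436 with a RefSeq locus) or from single-gene rows of the study's supplementary gene table (986 more), from which names alone were taken. No genome coordinates are given, since the values carry no build. The number of arrays limits the precision. The sources do not say whether replicates came from separate cultures, so p-values measure only the spread between these arrays, which may be technical. The members and gene lists were chosen with earlier results of these data known. Named genes are the 4 carriers, every list gene with a named probe set, and the 3 closest profiles per carrier. Alternatives were quantile normalization, spike-in centring, 2 filters on dim probe sets, a floor of 3, an intensity trend, a replicate block and leaving out each array.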

Additional observations from a re-analysis of the deposited data

How the results depend on the processing

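The 4 carriers kept a log2 fold change above 0 under every alternative run, but most of these could not have changed the sign. The filters, the intensity trend and the replicate block leave the fold change as it is, and spike-in centring only raises it. Since the genotypes did not overlap for the 4 carriers, leaving out an array or setting a floor could not reverse it either. Quantile normalization lowered their median to 0.56 and left 428 probe sets called, against 855. Spike-in centring, which adds 3.49 to every probe set, gave 4.70 for AUX1, 4.30 for PIN4, 4.34 for ABCB1, 4.59 for ABCB19 and 4.46 for their median, and called 22742 probe sets, so it says nothing about a single gene. The filter on dim probe sets left PIN4 at 0.81, ABCB1 at 0.85 and ABCB19 at 1.1, now called, among 2754 called, and a filter on the mean over 3, chosen after seeing the data, called the same 3 carriers at the same values among 2563. With values under 3 set to 3, PIN4 was called at 0.67. Leaving out 1 array at a time gave 0.61 to 1.02 for PIN4, called without either wild-type array, 0.80 to 1.04 for the median, and 0 to 3654 calls (723 higher and 2647 lower without the first wild-type array, 886 and 2768 without the second, 0 by limma without the first or without the second Atdi19-3 array, where 3768 and 3933 had an unadjusted p under 0.05). With the replicate number as a block, limma called 0 probe sets (3638 at an unadjusted p under 0.05). Deviations of same-numbered arrays correlated at 0.02 across probe sets, most of which lie near the floor. This cannot decide whether same-numbered samples share more than a number. The replicate block left the log2 fold changes of the carriers as they were, so a call lost under it is not a smaller difference. An array that reads near the floor limits what can be measured for AUX1, PIN4 and ABCB19.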
